A study of Mus musculus with 6 samples.

Results

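The genes described here encode the Kv pore subunits that carry the fast repolarising potassium currents of the mouse heart, together with their partner subunits. The set holds 7 genes (Kcnd2, Kcnd3, Kcnip2, Dpp6, Kcna4, Kcna5 and Kcnab1), and every probe set that the platform annotation names for one of them was taken, which gave 18 of the 45037 probe sets tested. A probe set is a group of short oligonucleotides that together measure 1 transcript. Hearts of 3 miR-1-2 knockout mice and of 3 wild-type mice were compared, all at postnatal day 10, with 1 array for each heart. Together with a second locus, miR-1-2 supplies the muscle microRNA miR-1, which lowers the transcripts it pairs with. The sources used here do not give how the deletion was made, nor strain or sex. The arrays' values for the microRNA were not analysed here, which leaves the genotype labels unchecked on the deleted gene.

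A ventricular action potential in the mouse is short, and the transient outward current ends its peak within a few milliseconds of the upstroke. The fast form of this current flows through channels built of Kv4 pores, with KChIP2 bound inside the cell and a dipeptidyl-peptidase-like protein beside the pore. A slower form flows through Kv1.4, and Kv1.5 carries a delayed current that opens fast and inactivates slowly. Iroquois factors act upstream of this machinery: in mouse ventricle Irx5 is known to repress Kcnd2, and the work that described these knockout mice examined Irx5 and Kcnd2.

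In the knockout hearts the Kcnd2 message was lower and the Kcnip2 message was higher, while the other 5 genes differed little. Kcnd2, which encodes the pore Kv4.2, was 1.83-fold lower at its brightest probe set (log2 difference -0.87 ± 0.15, SE, n = 3 hearts a group). This did not pass without regard to replicate numbers, and it passed when same-numbered hearts were compared as pairs. The titles do not say what a number marks, and the paired call was lost without the replicate 1 pair or the replicate 3 pair. Of its 4 probe sets 3 were lower, and the faintest was higher by 0.12. Kcnip2, which encodes KChIP2, was 1.43-fold higher at its brightest probe set (0.52 ± 0.13) and did not pass in either of these fits. Across the remaining 11 probe sets, the differences lay between -0.17 and 0.11, and the values of the groups overlapped in all 11.

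The upstream sequences of Kcnd2 and Kcnip2 are shown because these are the members that separated the groups. They are the 250 bases before the RefSeq transcription start (GRCm38.p6), 5′ to 3′ on the strand of the gene, at chr6:21215096-21215345 on the plus strand and chr19:45816064-45816313 on the minus strand. Capitals mark the GC box GGGCGG, searched on both strands.
Kcnd2: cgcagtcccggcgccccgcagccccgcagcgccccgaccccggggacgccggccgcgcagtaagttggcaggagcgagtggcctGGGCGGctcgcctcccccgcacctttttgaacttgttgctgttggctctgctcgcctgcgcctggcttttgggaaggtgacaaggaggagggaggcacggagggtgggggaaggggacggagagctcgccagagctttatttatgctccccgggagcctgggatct
Kcnip2: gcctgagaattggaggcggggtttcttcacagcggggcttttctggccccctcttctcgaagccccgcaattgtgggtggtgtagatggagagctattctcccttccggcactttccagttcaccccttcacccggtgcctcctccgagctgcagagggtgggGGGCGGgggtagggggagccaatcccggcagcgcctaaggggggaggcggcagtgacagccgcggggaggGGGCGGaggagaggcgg

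Kcnd2 holds 1 GC box, beginning 166 bases before the start, and Kcnip2 holds 2, beginning 87 and 17 bases before it. Both stretches are rich in G and C, at 68.8% for Kcnd2 and 66.8% for Kcnip2, against a median of 52.4% over all 32851 such windows. The GC box occurs in 32.7% of all windows and in 6 of the 11 windows of the 7 genes, all of which were matched by symbol. The motif ACANNTGT, known as a binding sequence of an Iroquois protein of Drosophila, occurs on either strand in 6.31% of all windows and in 0 of these 11. A match or its lack describes these letters in this stretch only.

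Arrays were compared on the log2 scale of the deposited expression values, on which a difference of 1 is a doubling and values run from 2.64 at the background floor to 14.6. Levels of different probe sets are not comparable with each other, because each has its own brightness. With 3 hearts a group, the 95% interval of a member's difference reached between 0.16 and 0.48 to either side. Every difference is knockout minus wild type, and the threshold is an adjusted p of 0.05 in limma, a linear model with variances shared across probe sets, after Benjamini-Hochberg adjustment over all 45037 probe sets. Without regard to replicate numbers 3 probe sets passed, 0.00666% of all, and 0 of the 18 did. In that limma fit 5 of the 18 had an unadjusted p under 0.05, where 3.94% of all probe sets did. When the replicate number was added as a block, 20 passed (0.0444% of all, and 0.0200% on the lower side). These held 2 of the 18, both for Kcnd2 and both lower.

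The groups did not overlap for 5 of the 18 probe sets, 3 higher and 2 lower in knockout, which is 27.8% against 8.70% of all probe sets (4.05% higher and 4.65% lower). These 5 came from 2 genes, Kcnd2 and Kcnip2, and probe sets of 1 gene share the same RNA and are not independent of each other. Over all 18, 7 were higher and 11 lower with a median of -0.024, beside a median of -0.0064 over all probe sets.

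**Figure D1:**
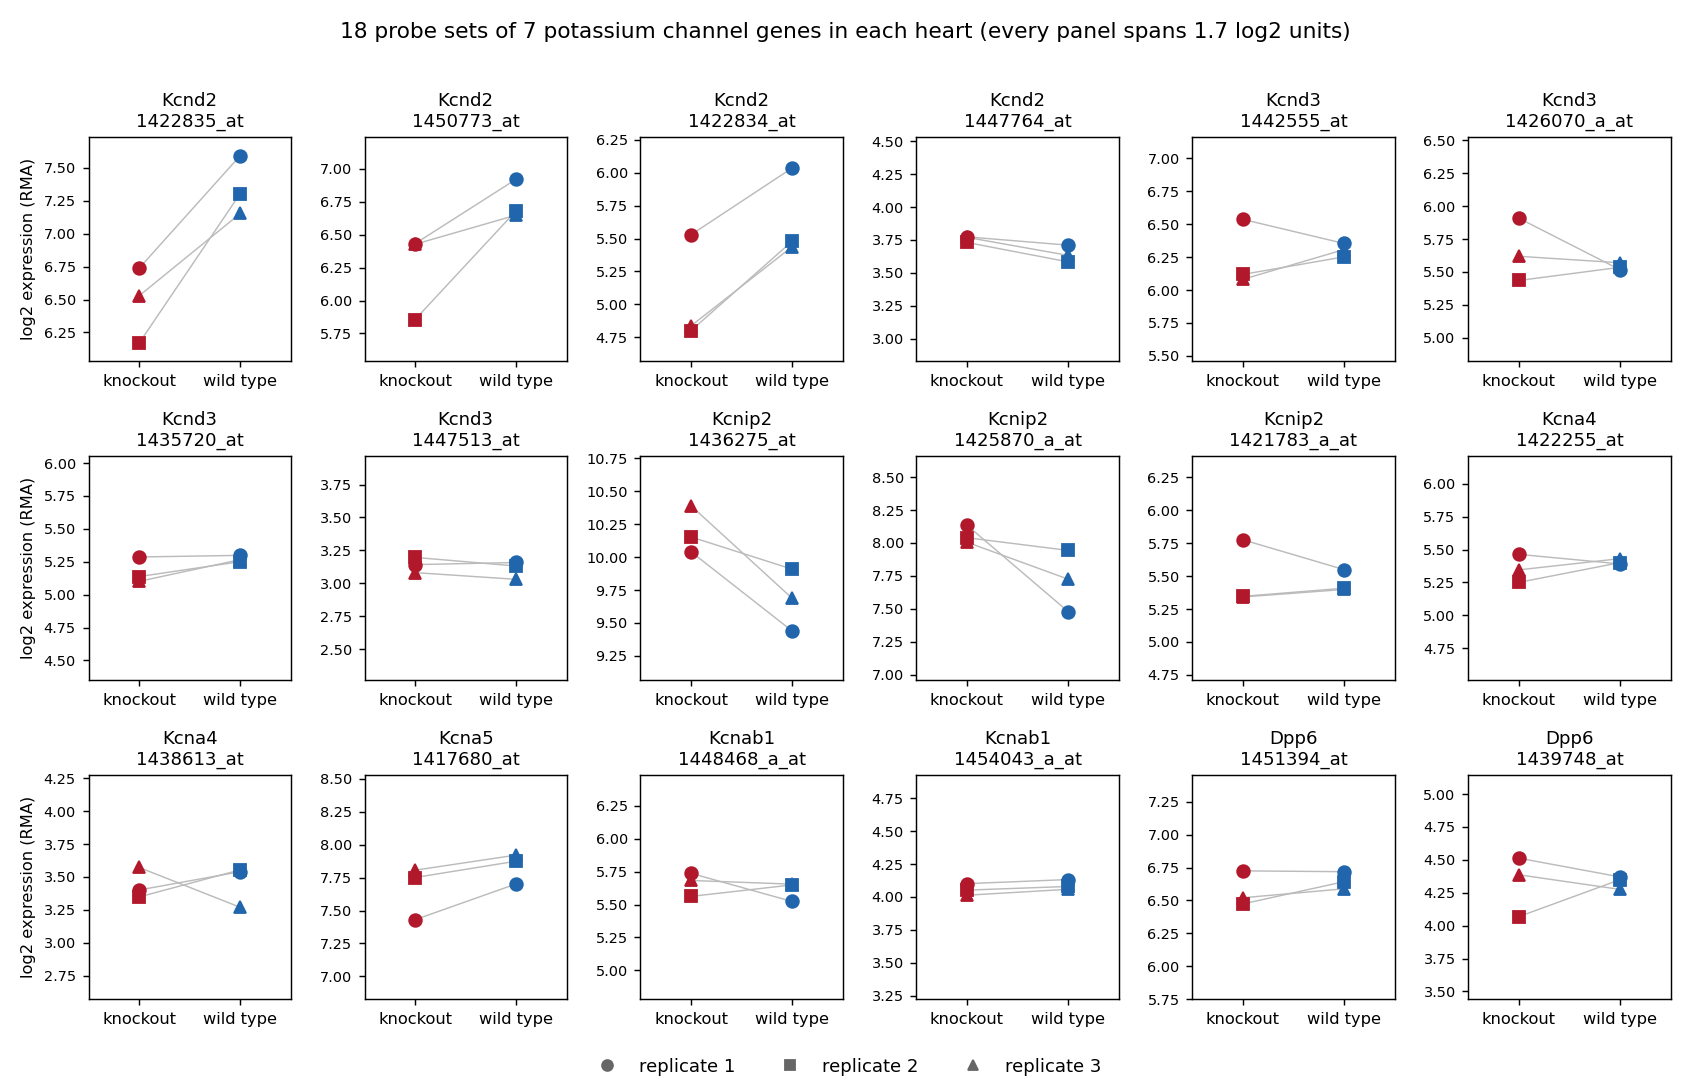
Deposited log2 expression of all 18 probe sets, 1 panel each, with knockout hearts in red on the left and wild-type hearts in blue on the right, marker shapes for replicate numbers and grey lines joining hearts of the same number. The brightest Kcnd2 probe set lies between 6.17 and 6.74 in knockout, below all wild-type hearts, the brightest Kcnip2 probe set between 10.04 and 10.39 in knockout, above all wild-type hearts, and most other panels are nearly flat.

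The hearts differed in more than genotype, and the values that touch the members are these. All 5 cardiomyocyte markers (Myh6, Tnnt2, Actc1, Tnni3 and Ryr2) were bright, with a mean of the list between 13.54 and 13.63 in knockout and between 13.53 and 13.59 in wild type. Xist was at 7.55, 12.19 and 7.57 in knockout replicates 1 to 3 and between 11.91 and 12.13 in wild type, and Eif2s3y on the Y chromosome ran opposite, so sex was not balanced. Ucp1, a brown fat gene, was at 10.39 and 9.45 in replicate 1 of knockout and wild type and between 5.22 and 6.68 in the other hearts. All 4 atrial markers (Myl7, Myl4, Sln and Nppa) were lower in knockout, with a list mean of 10.88 to 12.61 in knockout and 11.96 to 12.80 in wild type. The lowest heart of all was knockout replicate 3. The 3 ventricular markers had a list mean of 12.49 to 12.66 in knockout and 12.34 to 12.48 in wild type. Most of that came from Irx4 (difference 0.43), which is also one of the regulators described further on, while Myl2 (0.046) and Myl3 (0.019) overlapped between the groups. Lists of 4 markers each gave 3 genes higher for smooth muscle, 2 for endothelium, 1 for fibroblasts, 3 for brown fat, 2 for skeletal muscle and 0 for thymus and for myeloid cells. The groups were apart for Acta2 of smooth muscle (0.42, limma unadjusted p = 8.4e-04 and adjusted p = 0.721). They were also apart for Cd68 (-0.32) and Adgre1 (-0.25) of myeloid cells, Cox7a1 of the brown fat list (-0.22) and the cardiomyocyte gene Actc1 (-0.057). All of these were named after their values were seen. Cox7a1 was bright in every heart (11.71 to 12.15), those with low Ucp1 included, and the other 3 genes of its list were higher in knockout. In whole hearts, fewer cells of a type and less RNA per cell cannot be told apart, and the part that sex, fat or other cell types have in the results was not tested.

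Kcnd2 was measured by 4 probe sets. The brightest (1422835_at) was at 6.74, 6.17 and 6.53 in knockout replicates 1 to 3, and at 7.59, 7.31 and 7.15 in wild-type replicates 1 to 3. Every knockout heart lay below every wild-type heart, by 0.42 or more on the log2 scale. The means were 6.48 ± 0.29 in knockout and 7.35 ± 0.22 in wild type (SD, n = 3), with a 95% interval of the difference from -1.22 to -0.52. In limma without the block the adjusted p was 0.727, and the probe set ranked 18 by p among all.

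Compared heart by heart with the same replicate number, this Kcnd2 probe set was lower in 3 of 3 pairs, by log2 differences of -0.86, -1.14 and -0.63. Blocked on that number, limma gave an adjusted p of 0.0399. The only knockout heart with a wild-type-like Xist level, replicate 2, had the lowest Kcnd2 value of all 6 hearts. In replicate 1, where Ucp1 was high in both hearts, the difference (-0.86) was close to that over all hearts. These values rest on 1 heart and on 1 pair, and the part of sex or fat in the Kcnd2 difference was not tested. When Xist was added to the unblocked limma model, the probe set differed by -1.17 and did not pass (adjusted p = 0.450). The blocked call was lost without the replicate 1 pair (adjusted p = 0.158) and without the replicate 3 pair (adjusted p = 0.0815), each of which leaves 2 pairs. It held without the replicate 2 pair (adjusted p = 0.0193), where the remaining hearts differ in Xist as they do in genotype.

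The other Kcnd2 probe sets of moderate brightness were lower in knockout as well. Probe set 1450773_at was at 6.43, 5.86 and 6.43 in knockout and at 6.92, 6.68 and 6.65 in wild type, so the groups were apart, with a difference of -0.51 ± 0.15 (SE). It passed neither without the block (adjusted p = 1.00) nor with it (adjusted p = 0.321), and the difference was -0.32 without knockout replicate 2. Probe set 1422834_at was at 5.53, 4.80 and 4.84 in knockout and at 6.04, 5.48 and 5.44 in wild type. Here knockout replicate 1 lay above wild-type replicates 2 and 3, so the groups overlapped, although each knockout heart was below the wild-type heart of its number, by -0.51, -0.68 and -0.60. In limma the adjusted p was 0.0492 with the block, against 1.00 without it. The blocked call was lost whichever pair was left out, with an adjusted p of 0.158 without replicate 1, 0.0755 without replicate 2 and 0.543 without replicate 3.

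The faintest Kcnd2 probe set (1447764_at) went the other way. It was at 3.77, 3.73 and 3.77 in knockout and at 3.71, 3.58 and 3.63 in wild type, a difference of 0.12 ± 0.07 (SE) close to the background floor, with unadjusted p = 0.138 in limma. The groups were apart here too, by 0.02. Averaging the 4 probe sets of Kcnd2, the faintest included, gave a difference of -0.47, against -0.87 for the brightest one.

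**Figure D2:**
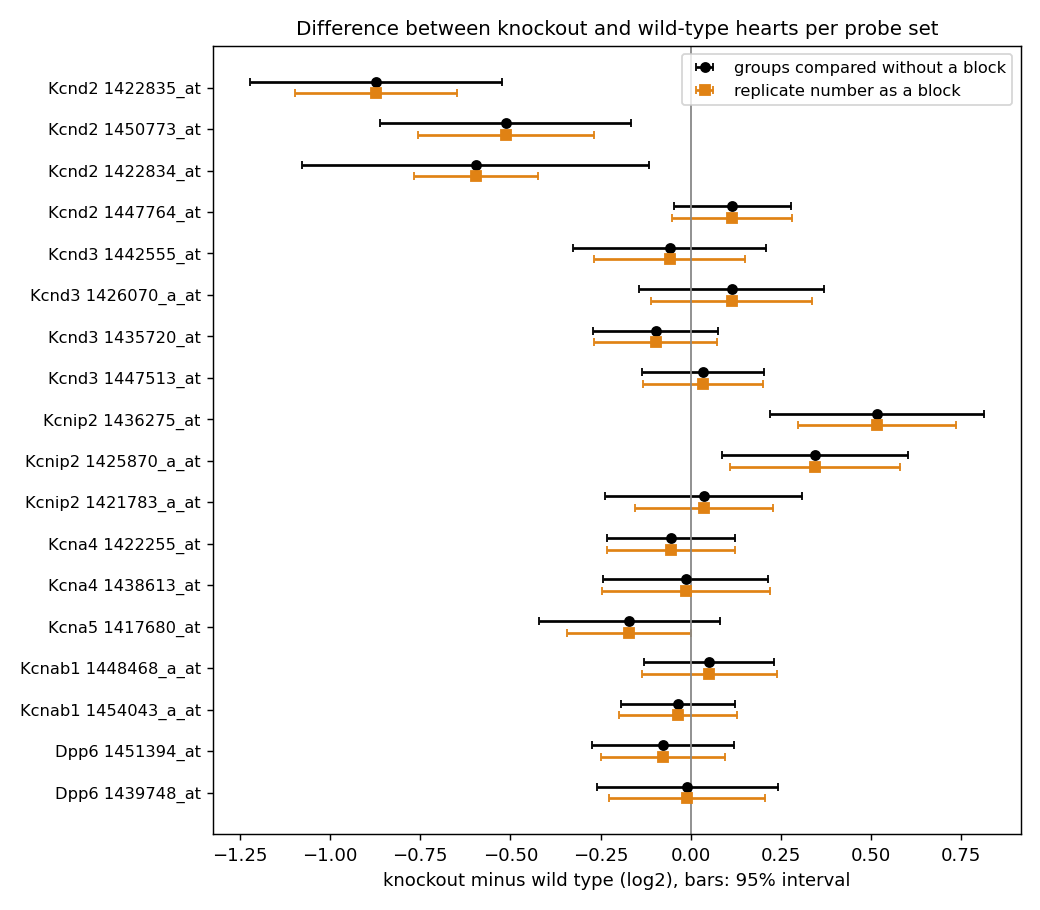
Knockout minus wild type on the log2 scale for each of the 18 probe sets, with 95% intervals from limma, black circles without a block and orange squares with the replicate number as a block. The 3 brighter Kcnd2 probe sets and the 2 brighter Kcnip2 probe sets have intervals that leave out 0 in both fits, and all other intervals span 0.

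Kcnd3 encodes Kv4.3, the other Kv4 pore of the heart, which assembles with Kv4.2. Its brightest probe set (1442555_at) was at 6.54, 6.12 and 6.08 in knockout and at 6.35, 6.25 and 6.31 in wild type. Knockout replicate 1 was the highest heart and the other knockout hearts were the lowest, so the groups overlapped with wild type in the middle. The difference was -0.06, with a 95% interval from -0.33 to 0.21, and leaving out single hearts moved it between -0.20 and 0.023. The 3 other probe sets differed by 0.11, -0.097 and 0.033, and the brightest of these (1426070_a_at) also had its highest value in knockout replicate 1, at 5.91 against 5.52 to 5.57 in wild type. These intervals do not reach the size of the Kcnd2 difference, but the difference between the genes was not tested.

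Among the partners of Kv4 pores, Kcnip2 was measured by 3 probe sets. KChIP2 is a calcium-binding protein that brings Kv4 channels to the cell surface and slows their inactivation, and mice without it lack the transient outward current. The brightest probe set (1436275_at) was at 10.04, 10.15 and 10.39 in knockout and at 9.44, 9.91 and 9.69 in wild type. All knockout hearts lay above all wild-type hearts, with means of 10.19 ± 0.18 and 9.68 ± 0.23 (SD, n = 3) and a 95% interval of the difference from 0.22 to 0.81. In limma the adjusted p was 1.00 without the block and 0.240 with it, at unadjusted p = 0.00332 and 4.1e-04. The pairs differed by 0.60, 0.24 and 0.70, so knockout was higher in 3 of 3. When Xist was added to the unblocked limma model, this probe set differed by 0.49 and did not pass (adjusted p = 0.674). Its highest heart, knockout replicate 3, was also the lowest in the atrial markers, which rests on 1 heart. The part of sex, fat or atrial tissue in the Kcnip2 difference was not tested.

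The second Kcnip2 probe set (1425870_a_at) was at 8.14, 8.04 and 8.01 in knockout and at 7.48, 7.94 and 7.73 in wild type. The groups were again apart, with a difference of 0.34 ± 0.11 (SE) that was 0.23 without wild-type replicate 1, the lowest heart. The third (1421783_a_at) was faint, at 5.78, 5.35 and 5.34 in knockout and at 5.55, 5.41 and 5.40 in wild type. It differed by 0.036 and overlapped, with its highest value in knockout replicate 1. Averaging the 3 probe sets gave 0.30, against 0.52 for the brightest.

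**Figure D3:**
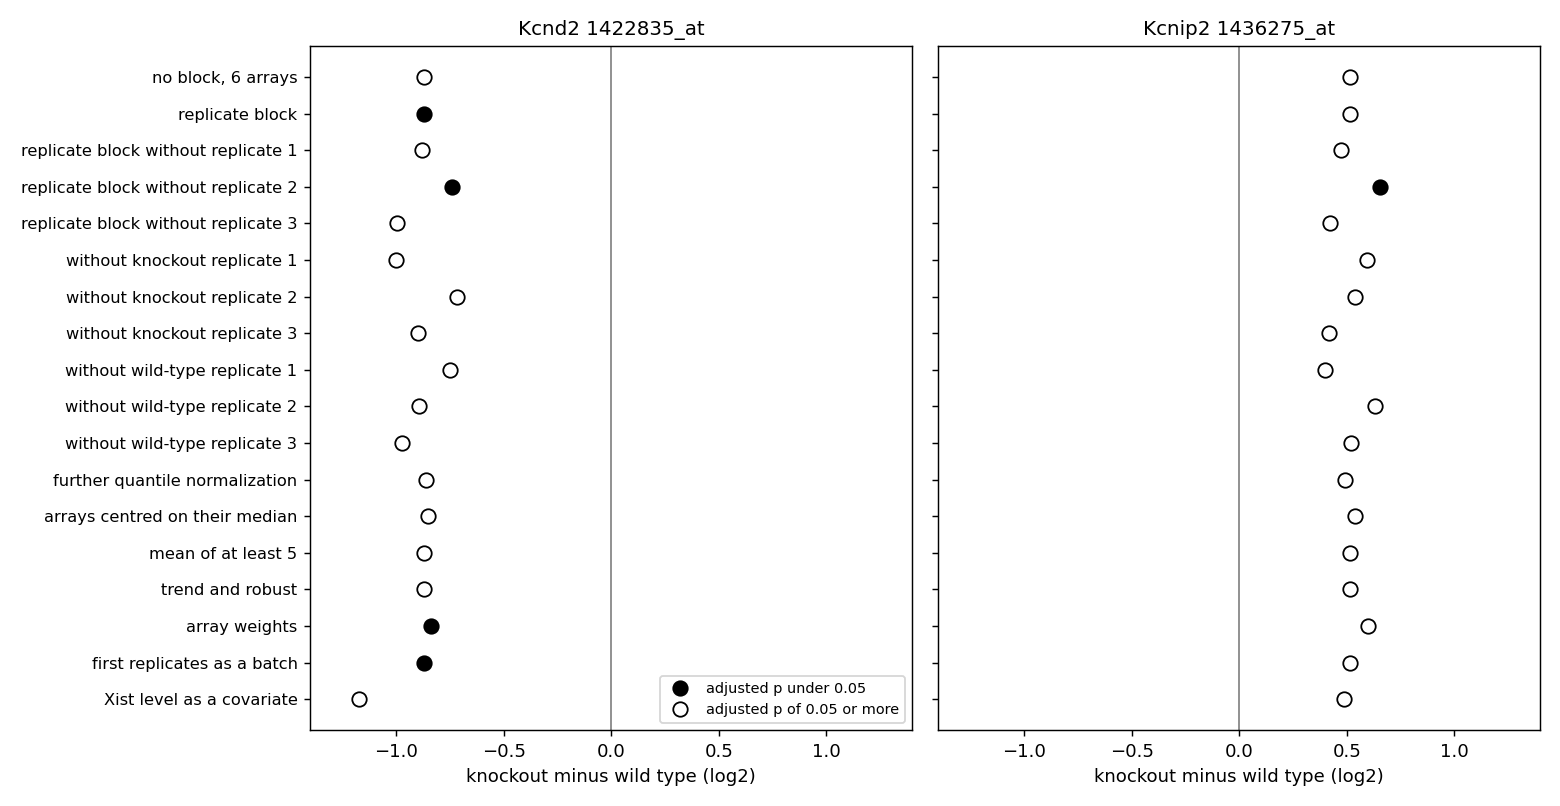
Difference between knockout and wild type (log2) for the brightest probe sets of Kcnd2 (left) and Kcnip2 (right) under each of 18 settings, filled where limma gave an adjusted p under 0.05. Kcnd2 stayed between -1.17 and -0.72 and passed in 4 settings, and Kcnip2 stayed between 0.40 and 0.65 and passed in 1.

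Dpp6 encodes a peptidase-like protein without enzyme activity that speeds the gating of Kv4 channels, and it is best known from neurons. Its brighter probe set (1451394_at) was at 6.72, 6.47 and 6.52 in knockout and at 6.72, 6.64 and 6.59 in wild type. The groups overlapped, with a difference of -0.077 and a 95% interval from -0.27 to 0.12. The fainter one (1439748_at) ranged from 4.07 to 4.51 in knockout and from 4.28 to 4.37 in wild type, a difference of -0.0091. Of 9 nerve and glia markers 6 were measured, and the list mean ran from 4.92 to 5.13 in knockout and from 4.98 to 5.30 in wild type, with Snap25 near the floor.

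Among the Kv1 genes, Kcna4 encodes Kv1.4, the pore of the slow transient outward current. Its brighter probe set (1422255_at) was at 5.46, 5.25 and 5.35 in knockout and at 5.39, 5.40 and 5.43 in wild type. The wild-type hearts lay close together inside the knockout range, and the difference of -0.054 had a 95% interval from -0.23 to 0.12. The second probe set (1438613_at) stayed between 3.27 and 3.57 in all 6 hearts and differed by -0.014.

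Kcna5, the gene of Kv1.5, had 1 probe set (1417680_at). It was at 7.43, 7.75 and 7.81 in knockout and at 7.70, 7.87 and 7.92 in wild type. The groups overlapped, although knockout was lower in 3 of 3 pairs, by -0.27, -0.12 and -0.11. The difference of -0.17 ± 0.11 (SE) did not pass (limma, adjusted p = 1.00, and 0.773 with the block). It was -0.054 without knockout replicate 1, the lowest of the 6 hearts.

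Kcnab1 encodes a beta subunit that binds Kv1 pores inside the cell and can give them fast inactivation. Its brighter probe set (1448468_a_at) was at 5.74, 5.56 and 5.68 in knockout and at 5.52, 5.65 and 5.65 in wild type. Knockout replicate 1 was the highest heart and wild-type replicate 1 the lowest, the groups overlapped, and the difference of 0.051 had a 95% interval from -0.13 to 0.23. The fainter probe set (1454043_a_at) lay between 4.01 and 4.13 in all 6 hearts and differed by -0.035.

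The genes around these channels were counted in a limma fit with 1 probe set a gene, the brightest, over 18193 genes. In that fit 0 genes passed, 0.00% of all, and 746 genes (4.10%) stood under an unadjusted p of 0.05. The blocked fit passed 13 genes (0.0715%), and 7.29% of all stood under an unadjusted p of 0.05. Of the 7 members 0 passed in the first fit, and Kcnd2 was the 1 that passed in the second (adjusted p = 0.0318). The groups did not overlap for 8.86% of all genes and for 2 of the 7, Kcnd2 and Kcnip2.

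Of 51 other pore and accessory subunits of potassium channels 45 were measured, 22 higher and 23 lower, with a median of -0.0016 beside 4.8e-04 over all genes. In limma 0 passed with or without the block. An unadjusted p under 0.05 was reached by 2 without the block and 6 with it, beside 4.10% and 7.29% of all genes. Kcnq1, the pore of the slow delayed rectifier, was at 8.88, 9.05 and 9.04 in knockout and at 8.43, 8.76 and 8.80 in wild type, and its groups were apart (difference 0.33 ± 0.11, SE). Kcnk3, a background channel, differed by 0.28, and Kcna2 by -0.17. Kcnd1, the third Kv4 pore, was at 6.64, 6.60 and 6.55 in knockout and at 6.82, 6.64 and 6.82 in wild type, a difference of -0.16. Kcna6, named after its values were seen, was the other gene of the list with groups apart (-0.13), which makes 2 of 45 beside 8.86% of all genes.

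Of 20 proteins that anchor, traffic or modulate these channels 16 were measured, 13 higher and 3 lower, with a median of 0.11. Over all 18193 genes 9134 were higher and 9059 lower, with a median of 4.8e-04. Whether the lists differ from all genes was not tested. In limma 0 passed with or without the block. An unadjusted p under 0.05 was reached by 2 in each fit, beside 4.10% of all genes without the block and 7.29% with it. Camk2a, a subunit of the calcium/calmodulin-dependent kinase II, differed by 0.32 ± 0.10 (SE) and Prkca, a protein kinase C, by 0.20. The groups were apart for these 2 of the 16, beside 8.86% of all genes. Prkce differed by 0.17 and Rab4a by 0.15, with overlapping groups.

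Of 25 factors known to act on the expression of cardiac ion channels 23 were measured, 15 higher and 8 lower. Their median was 0.11, beside 4.8e-04 over all genes, of which 9134 were higher and 9059 lower. In limma 0 passed with or without the block. An unadjusted p under 0.05 was reached by 3 without the block and 6 with it, beside 4.10% and 7.29% of all genes. The groups were apart for 3 of the 23, beside 8.86% of all genes, and these were the Iroquois genes of the list. Irx5 was at 7.20, 7.38 and 7.42 in knockout and at 6.81, 7.05 and 6.94 in wild type (difference 0.40 ± 0.09, SE, adjusted p = 0.843, and 0.161 with the block). Irx4, a ventricular factor, differed by 0.43 and Irx3 by 0.36. Tbx20, a T-box factor of heart, differed by 0.29. Smyd1, the muscle methyltransferase that acts with Irx5 on Kcnd2, was at 10.11, 10.43 and 10.24 in knockout and at 10.27, 10.52 and 10.16 in wild type and overlapped.

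**Figure D4:**
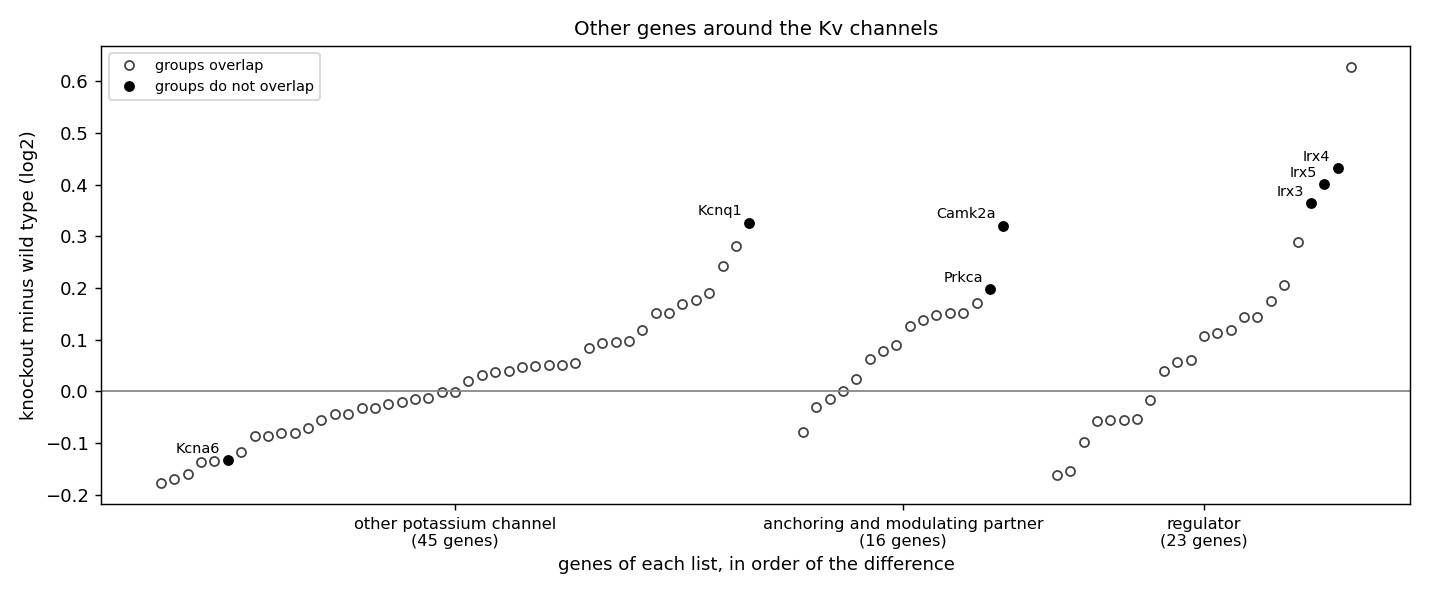
Knockout minus wild type (log2) for the 45, 16 and 23 measured genes of the 3 surrounding lists, each in order of the difference, filled where the groups did not overlap. The filled genes are Kcnq1 and Kcna6 among channels, Camk2a and Prkca among partners and Irx3, Irx4 and Irx5 among regulators, and the highest open point, Hey2 at 0.63, overlapped between the groups.

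The genes most like Kcnd2 and Kcnip2 over the 6 hearts were found by the root mean square difference of their values after each gene was centred on its own mean, among 11539 genes with a mean of at least 6. For Kcnd2, whose own values deviated from their mean by 0.48, the nearest were Pdk4 (0.18), Hamp (0.18), Art1 (0.18), Ckmt2 (0.20) and Asb5 (0.22). All 5 were lower in knockout, with differences from -0.80 for Hamp to -0.52 for Ckmt2. All 5 had their highest value in wild-type replicate 1, as Kcnd2 had. Both traits follow largely from choosing genes by closeness to the Kcnd2 values. Pdk4 is a kinase that shuts off pyruvate dehydrogenase, Ckmt2 the mitochondrial creatine kinase of muscle and Hamp the gene of hepcidin.

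For Kcnip2, whose values deviated from their mean by 0.31, the nearest genes were Mt1 (0.063), Slc9a7 (0.099), Irx5 (0.10), Aldh1b1 (0.11) and Irx4 (0.11). Mt1, which encodes a metal-binding metallothionein, was at 10.12, 10.34 and 10.52 in knockout and at 9.68, 9.98 and 9.90 in wild type. Like Kcnip2, all 5 had their lowest value in wild-type replicate 1 and their highest in knockout replicate 3. That too follows largely from the choice by closeness. These likenesses describe 6 hearts that share genotype, replicate number and normalization, and a search over many genes finds near patterns in any such set.

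**Figure D5:**
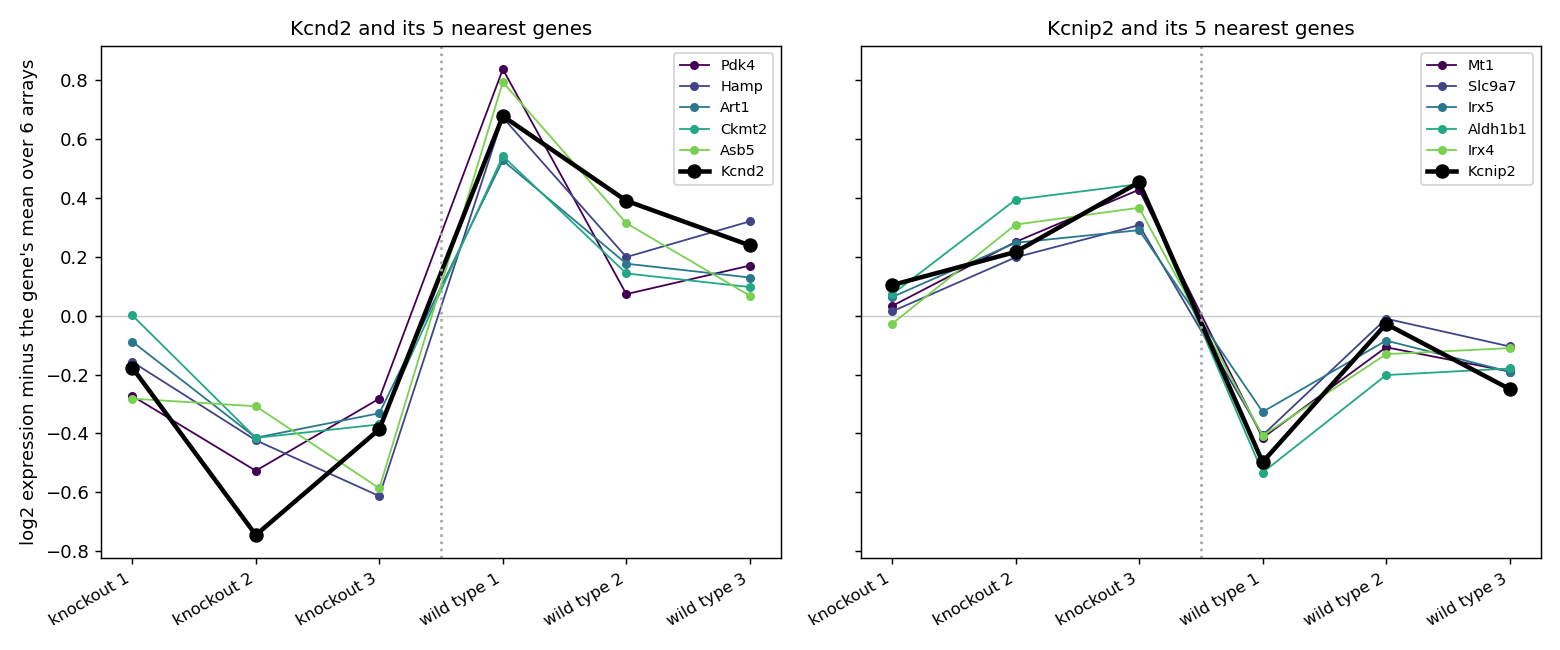
Log2 expression minus the mean over the 6 hearts for Kcnd2 (left, black) and Kcnip2 (right, black) and the 5 genes nearest to each, knockout hearts left of the dotted line and wild-type hearts right of it. Lines only join the points of a gene, Kcnd2 and its neighbours peak in wild-type replicate 1, and Kcnip2 and its neighbours have their lowest point there.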

How the data were processed

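Trizol-extracted total RNA of hearts was put through 1 round of amplification with biotin labelling, per the labels' protocols. The submitters' processing notes name GCOS 1.4. Each deposited value is a log2 expression level from RMA, run by the authors with affy in R, per the design text. RMA takes off background, gives all arrays the same distribution and combines probes into probe sets, so faint differences shrink and a change common to most genes is lost. Read depth does not exist for arrays. Array medians were 6.03 to 6.11 and 0 pairs of arrays were identical.

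The 64 control probe sets were left out. Of 45037 others, 34945 named 1 gene, 932 several and 9160 none, by the platform annotation with symbols updated through RefSeq identifiers (18031 of 18193 genes matched). Each gene was represented by its brightest probe set. The sequences are RefSeq's, GRCm38.p6. Tests used limma 3.58.1 in R 4.3.3 without a block, and the steps were tested on simulated data. Titles group the samples, and the series' design text gives 3 mice a genotype.

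The titles number the hearts 1 to 3 in each group, with no statement of what a number marks. In the blocked fit the numbers were treated as pairs, following the titles. After subtracting group means, same-numbered arrays correlated over genes at 0.54, 0.18 and 0.13. Such deviations cancel within a group, so the match of the first replicates by itself raises the values among the others. The last 2 values therefore cannot show that the numbers mark pairs. The crossed pairs of replicates 2 and 3 correlated more highly than the same-numbered ones, at 0.35 and 0.30. The pairing of these 2 therefore rests on the titles alone, and the values do not back it.

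The members, the lists (written from general knowledge) and the tests were chosen with earlier results of these data known. Named were all members, up to 4 genes of each list by the smallest p, Irx3, Irx4, Irx5 and Smyd1 always, and the 5 genes nearest in pattern. Markers of other cell types and of sex were also listed, and the alternatives tried are given in the closing section.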

Additional observations from a re-analysis of the deposited data

How the results depend on the processing

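With 1 value a gene in limma, Kcnd2 was lower and Kcnip2 higher in knockout under all alternatives run. The differences were -1.17 to -0.47 for Kcnd2 and 0.30 to 0.65 for Kcnip2. Their faintest probe sets did not follow this. The one of Kcnd2 (1447764_at) stayed higher, at 0.086 to 0.15. The one of Kcnip2 (1421783_a_at) ran from -0.11 to 0.11 and changed sign in 4 of 17 alternatives. Kcnd2 passed with the replicate number as a block (-0.87), with that block without replicate 2 (-0.74), with the first replicates as a batch (-0.87) and with array weights (-0.81). Kcnip2 passed with the block without replicate 2 (0.65) and with array weights (0.62). The settings without replicate 2 or knockout replicate 2 set hearts of unlike Xist level against each other. Leaving out single hearts gave -1.002 to -0.72 for Kcnd2, 0.40 to 0.63 for Kcnip2 and -0.20 to 0.023 for Kcnd3, none past the threshold. Kcnd3 was also at 0.025 with the block without replicate 3, at 0.0047 without knockout replicate 2 and at 0.023 without knockout replicate 3. Kcnab1 was at -0.030 with the block without replicate 1 and at -0.039 with the Xist level as a covariate.

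Of the 18 member probe sets 0 passed without a block, 2 with the block (both Kcnd2), 2 with the block without replicate 2 (1 of Kcnd2 and 1 of Kcnip2), 1 with array weights (Kcnd2) and 2 when the first replicates formed a batch (both Kcnd2). Of the 7 member genes 1, 2, 2 and 1 passed in these settings. Over all probe sets 3 passed without a block, 20 with it, 55 with the block without replicate 2, 24 with array weights, 0 with the Xist covariate, 24 when the first replicates formed a batch, 6 with a robust variance trend, 0 with a mean of at least 5, and 1 to 15 without single hearts. Over all genes 0 passed without a block, 13 with it, 11 and 36 with the block without replicates 1 and 2, 416 with array weights, 15 when the first replicates formed a batch, 3 with the mean of probe sets, and 0 to 4 without single hearts. With array weights 1 other channel gene, 2 partners and 5 regulators passed, and 1 regulator with the block without replicate 1. The causes were not tested. Arrays per group limit the precision, and signal near the floor limits the faint probe sets.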

Other observations

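Across the 18 probe sets of the channel genes, knockout replicate 1 had the highest of the 6 values in 9, and knockout replicate 2 the lowest in 7. Over all probe sets these hearts were the highest in 26.1% and the lowest in 24.4%. Wild-type replicate 2 was the highest in 0 of the 18, against 10.7% of all probe sets, and with 18 probe sets such a count is near that share. The 18 come from 7 genes and are not independent of each other, and the counts were not tested against the shares.

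Hey2, a factor of ventricular identity named here after its values were seen, had the largest difference of the 23 measured regulators, at 5.72, 6.89 and 6.99 in knockout and 5.51, 6.16 and 6.05 in wild type. Both hearts of replicate 1 were the lowest of their group. The difference was 0.63, with unadjusted p = 0.0808 without the block and 6.2e-04 with it in limma. It did not pass in either fit (adjusted p = 0.183 with the block).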
